A study of Homo sapiens with 2 samples.

Results

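CD44 is a transmembrane glycoprotein that binds hyaluronan, and it is one of the surface markers by which colorectal cancer stem cells (CSCs) are recognised. Every probe set that the platform's annotation assigns to CD44 alone was taken, which gave 13 probe sets of the 54675 on the array. The study compared HT-29 cells, a human colorectal adenocarcinoma line, grown as spheroids for 5 days in stem cell media on low-adhesion plates (1 array) with HT-29 cells kept as monolayer in serum-containing medium (1 array). The stem cell media carried B27 with EGF and FGF as growth factors, so that growth form, medium and attachment differed together and cannot be told apart. The values are MAS5 signals, which are probe set intensities on a linear scale, from Human Genome U133 Plus 2.0 arrays. Neither condition has a replicate, so the differences carry no error and none was tested. CD44 was chosen because earlier values from these arrays had shown its probe sets to disagree, so that its values are a description throughout.

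CD44 links the pericellular matrix to the actin cytoskeleton. Its outer domain holds hyaluronan, its short tail binds the ezrin, radixin and moesin proteins and ankyrins, and metalloproteases can shed the outer part before gamma-secretase cuts the rest. The gene is known for alternative splicing, in which a block of variant exons is left out of the standard form and kept in part in the variant forms of many epithelia and carcinomas. In the intestine CD44 is found in the crypt base and is a known target of Wnt signalling. The RefSeq table lists 44 transcripts for the gene. Which stretch of the CD44 mRNA each probe set reads was not analysed here, so no probe set is tied to an isoform.

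Most CD44 probe sets gave a lower signal on the spheroid array than on the monolayer array. Of the 13 probe sets, 9 gave signals over the floor in spheroids as well as in monolayer, and 4 were under it in both. The floor of 62.7 is the median of all signals, and a probe set under it on both arrays was given no difference. Of the 9 probe sets with a difference 8 were lower in spheroids and 1 was higher, where 50.3% of the 24534 probe sets measured on both arrays (each signal over the floor) were below 0. The median log2 difference, spheroid minus monolayer, was -0.78 over the 9 probe sets, a signal 1.71-fold lower. Only 229221_at was at least 2-fold lower, where 2.59% of all such probe sets were, and 0 were at least 2-fold higher, where 3.84% of all were. A further 2, 210916_s_at and 1557905_s_at, lay just inside that limit at 1.97-fold and 1.92-fold lower. These probe sets share the same RNA and the same arrays and are not replicates. In RNA of whole cultures, fewer cells with CD44 and less CD44 RNA per cell cannot be told apart.

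The brightest probe set differed least between the arrays. 212063_at had a signal of 11737 in spheroids and 12917 in monolayer, a log2 difference of -0.14 or 1.10-fold lower. On the monolayer array 715 of all probe sets, controls included, were brighter than it. The highest signal there, 68687, was that of a control probe set. The next brightest, 204489_s_at, had 4657 in spheroids and 7442 in monolayer, a log2 difference of -0.68. That was 1.60-fold lower in spheroids.

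The other bright probe sets had differences of a similar size to that of 204489_s_at. 209835_x_at had 3608 in spheroids and 5969 in monolayer (log2 difference -0.73). 204490_s_at had 3074 in spheroids and 5524 in monolayer (-0.85). 212014_x_at had 2913 in spheroids and 4992 in monolayer (-0.78). Signals of different probe sets are not amounts of RNA that can be set against each other, so only the differences between the arrays were compared.

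Among the dimmer probe sets 3 were lower and 1 was higher. 1557905_s_at had 671.3 in spheroids and 1288 in monolayer, a log2 difference of -0.94. 210916_s_at had 419.3 in spheroids and 826.3 in monolayer (-0.98), and 229221_at had 229.9 in spheroids and 533.9 in monolayer (-1.22). The last of these was the lowest difference of the gene, 2.32-fold lower in spheroids. 217523_at went the other way, with 997.9 in spheroids and 847.3 in monolayer, a log2 difference of 0.24 or 1.18-fold higher. By the mean log2 signal of both arrays it lay next to 1557905_s_at, so that probe sets of like brightness gave opposite directions.

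The 4 probe sets under the floor were given no direction. 234411_x_at had 59.9 in spheroids and 54.0 in monolayer, and 1565868_at had 50.6 in spheroids and 52.0 in monolayer. 216056_at had 15.5 in spheroids and 28.6 in monolayer, and 234418_x_at had 5.80 in spheroids and 7.46 in monolayer. On the monolayer array 52.7% to 83.8% of all probe sets were brighter than these, and the table holds no detection calls by which to tell them from background.

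Bright and dim probe sets of CD44 agreed in direction for most members, and those apart in size, 212063_at and 217523_at, were a bright and a dim one. Split by signal, the 5 bright probe sets, with a mean log2 signal above 11, had a median log2 difference of -0.73 and an SD of 0.28. The 4 dimmer ones had a median of -0.96 and an SD of 0.65. Spearman's rho between mean log2 signal and log2 difference was 0.63 over the 9 probe sets, which share 1 gene and both arrays. Without regard to brightness, 7 of the 9 lay between -1.22 and -0.68, or 1.60-fold to 2.32-fold lower, with an SD of 0.18. This group of 7 was formed after the values were seen. Outside it stood 212063_at and 217523_at.

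Probe set names carry a class, in which a plain _at ending marks probes designed for 1 transcript or gene, _s_at probes shared by several transcripts and _x_at probes that may bind other sequences. All 4 _s_at probe sets of CD44 were above the floor and ran from -0.98 to -0.68. Of the 4 _x_at probe sets 2 were above the floor, at -0.78 and -0.73. Of the 5 plain _at probe sets 3 were above the floor, and these held both the lowest and the highest difference of the gene, -1.22 for 229221_at and 0.24 for 217523_at, with 212063_at between them. The probe sets that stood apart from the group of 7 were both of the plain class.

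Set against all probe sets of like brightness, the 7 lay near the lower edge and the other 2 in the middle. The 7 were grouped by these same differences, so that their place at the edge follows in part from that choice. The 24534 measured probe sets were divided into 20 bins of equal number by mean log2 signal, and each CD44 probe set was placed in its own. For 212063_at, in the brightest bin, 36.4% of the 1227 probe sets had a difference as low or lower, and the SD of the bin was 0.29. For 217523_at the share was 69.8%, in a bin with an SD of 0.50. For 204490_s_at it was 0.733%, for 212014_x_at 1.22%, for 209835_x_at 1.79% and for 204489_s_at 2.77%. The 3 dim ones had shares of 2.04% (229221_at), 2.36% (1557905_s_at) and 2.69% (210916_s_at). The fold of 229221_at was the largest of the gene, yet the spread of its bin was also wider, with an SD of 0.61 against 0.38 for the bin of 204490_s_at.

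**Figure D1:**
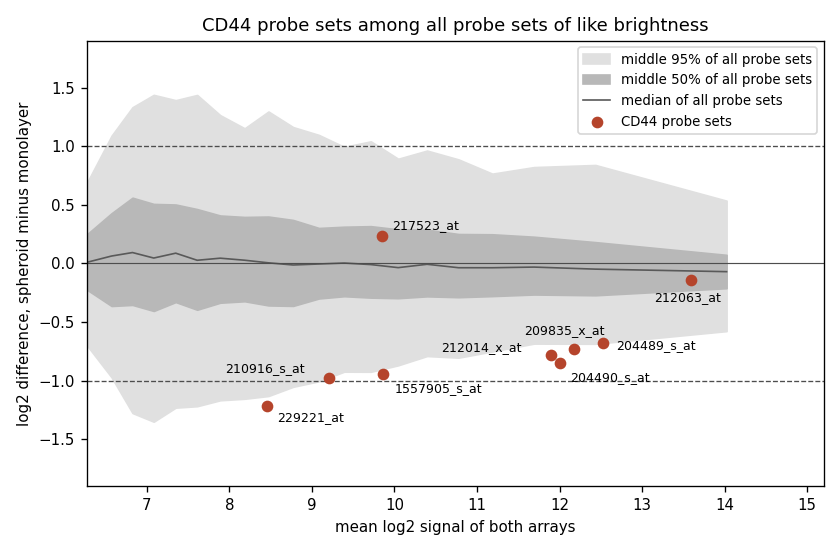
Log2 difference in signal, spheroid minus monolayer, against the mean log2 signal of both arrays for the 9 CD44 probe sets above the floor (dots), 1 array per condition. The light and dark bands hold the middle 95% and 50% of all probe sets in each of 20 bins of brightness, and dashed lines mark 2-fold. The 7 probe sets with the lowest differences, grouped after the values were seen, run along the lower rim of the light band, while 212063_at and 217523_at lie inside the dark one.

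The spread between the CD44 probe sets was set against that of other genes with many probe sets. The SD of the log2 difference over the 9 probe sets was 0.45 and their range was 1.45. Of the other genes, 129 had at least 6 measured probe sets, and 44 of these, or 34.1%, had an SD as large or larger. The median SD over these genes, CD44 included, was 0.39 and the highest 0.98, for GART. The range of CD44 was reached by 27 of the 129. Other genes with at least as many measured probe sets as CD44 numbered 4, with SDs of 0.21 for ZBTB20, 0.39 for MSI2, 0.46 for MALAT1 and 0.56 for CSNK1A1. Leaving out each CD44 probe set in turn gave SDs from 0.31, without 217523_at, to 0.48. The share of other genes with as large an SD was 10.5% of 19 genes with the floor at the 75th percentile of all signals, 15.4% of 13 genes with plain _at probe sets only and 84.1% of 630 genes without a floor. With plain _at probe sets only, the SD of CD44 was 0.75 over 3 probe sets, while each of the 13 genes had at least 6.

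The level of the differences lay at the low end. None of the other 129 genes had a median as low as the -0.78 of CD44, and the next was MACF1, a linker of actin and microtubules, at -0.69 over 6 probe sets. The median of the 129 medians was 0.08. Over the 5505 other genes with 2 or more measured probe sets, 140 genes or 2.54% had a median as low or lower, and 1.09% of the 5506, CD44 not among them, had a median at least 2-fold lower. The median of CD44 stayed between -0.81 and -0.75 when each of its probe sets was left out in turn.

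The gap between the brightest probe set and the rest was wide for CD44. The difference of 212063_at stood 0.67 above the median of the other 8, which was -0.81. In size such a gap was reached by 10 of the 129 other genes, or 7.75%, and in the same direction by 3. The median size of the gap over those genes was 0.22, and the brightest probe set stood above the others in 65 of them. Without 212063_at the gap of CD44 was 0.17, between 204489_s_at and the remaining probe sets. All but 1 probe set or all of them shared a sign in 57 of the 129 genes, as in CD44.

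**Figure D2:**
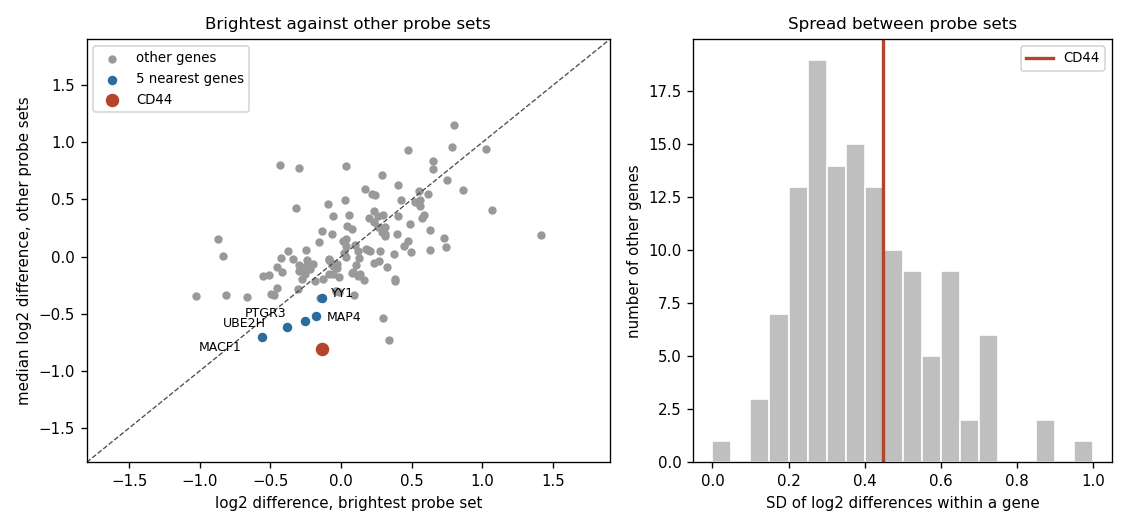
Genes with at least 6 measured probe sets, 1 array per condition: on the left the log2 difference of the brightest probe set against the median of the other probe sets, with the line of equality dashed, and on the right the number of other genes by SD of the log2 differences within a gene. CD44 lies at -0.14 and -0.81, under the line, and its SD of 0.45 falls within the bulk of the histogram.

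The genes with the most similar pattern were found by their distance from CD44 in 2 values, the difference of the brightest probe set and the median of the others, among the 129 genes and over the 2 arrays. They were PTGR3 (distance 0.28), a prostaglandin reductase, MAP4 (0.30), a microtubule-associated protein, UBE2H (0.31), a ubiquitin-conjugating enzyme, MACF1 (0.43) and YY1 (0.45), a zinc finger transcription factor. YY1 came closest to CD44 at its brightest probe set, at -0.13, but the median of its others was -0.36. The brightest probe set of MAP4 was at -0.17, with signals of 4484 in spheroids and 5061 in monolayer. The other probe sets of MAP4 ran from -0.67 to 0.04. The gap between the brightest and the rest was 0.34 for MAP4 and 0.30 for PTGR3, against 0.67 for CD44.

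Taken as a gene, CD44 was at -0.14 by its brightest probe set, at -0.78 by the median of its probe sets and at -1.22 by the probe set with the largest difference. Only the last passed the 2-fold limit of the methods. By that same choice for every gene, 716 genes were at least 2-fold lower and 791 higher. By the brightest probe set, 406 of 13183 genes (3.08%) were lower and 334 (2.53%) higher. Among the 130 genes with at least 6 measured probe sets, CD44 included, 39 had a probe set past 2-fold in either direction while the brightest was not, and in 4 the brightest was past it. Past 2-fold either way lay 6.43% of all measured probe sets and 5.61% of all genes by their brightest probe set.

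The direction of 212063_at depended on how the arrays were scaled. Both arrays were scaled by the authors to the same trimmed mean, but the hybridisation controls, 18 probe sets for transcripts added in known amount, each read lower in spheroids, with a mean log2 difference of -0.25. Scaled to these, which raises every difference alike, 212063_at was at 0.11 and the CD44 median at -0.53, with 7 of 9 probe sets lower and 0 at least 2-fold lower. The labelling controls, 24 probe sets for transcripts added before labelling, also each read lower in spheroids, with a mean log2 difference of -0.42. Scaled to these, 212063_at was at 0.28, the CD44 median at -0.36 and the lowest probe set, 229221_at, at -0.79. The median over all 11555 genes measured on both arrays was -0.06 as deposited. Over the genes above the floor after scaling it was 0.18 with the hybridisation controls and 0.35 with the labelling controls. The part of these offsets in the CD44 values was not tested. RNA integrity was read from control probe sets at both ends of a transcript, and the signal at the 3' end over that at the 5' end was 1.07 in spheroids and 1.05 in monolayer for GAPDH, and 3.65 in spheroids and 4.07 in monolayer for ACTB. The part of RNA integrity in the CD44 values was not tested.

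Genes next to CD44 on the chromosome were taken by their brightest probe set, by which CD44 was at -0.14. PDHX, a component of the pyruvate dehydrogenase complex, had 2684 in spheroids and 3108 in monolayer, a log2 difference of -0.21. APIP, an enzyme of methionine salvage, was at -0.23. SLC1A2, a glutamate transporter on the other side, was under the floor on both arrays by its brightest probe set, and PAMR1, beyond it, had 12.2 in spheroids, under the floor, and 96.0 in monolayer, which bounds it at least 1.53-fold lower. The RNA genes CD44-AS1 and SNORD164, which overlap CD44, and its neighbour CD44-DT have no probe set of their own here.

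The sample labels were set against markers of the colon epithelium and of other cells that carry CD44. Of 11 epithelial markers 6 were above the floor on both arrays, among them EPCAM with 22299 in spheroids and 21151 in monolayer, and KRT18 with 22627 in spheroids and 29713 in monolayer. The intestinal genes CDX1, CDH17 and LGALS4 were under the floor on both arrays, VIL1 was above it in monolayer alone, at 100.5, and CDX2 in spheroids alone, at 80.0. The identity of the line labelled HT-29 was not tested. The leukocyte markers PTPRC, CD3E, CD14 and LYZ, 4 of 6 with a probe set of their own, were all under the floor on both arrays, with summed signals of 87.5 in spheroids and 124.9 in monolayer. Of 6 fibroblast markers COL1A1 alone was above the floor on both arrays, with 1972 in spheroids and 1370 in monolayer. The log2 differences of its 4 measured probe sets ran from -0.05 to 1.04. COL1A2 was above the floor in monolayer alone, at 64.9, and COL3A1, PDGFRB, DCN and LUM were under it on both arrays. Of 4 endothelial markers PECAM1 alone was above it, at 99.5 in spheroids and 123.7 in monolayer.

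Genes that act with CD44, and other surface markers of colon CSCs, lay on both sides of 0. Over 10 lists of such genes, with 89 genes, 81 had a probe set of their own and 69 were above the floor on 1 or both arrays. Of these, 5 lay past 2-fold on the higher side (7.25%), where 2.53% of all genes did. On the lower side lay 4 (5.80%), where 3.08% of all genes did. The lists were chosen with earlier results of these data known, so that these shares are a description. The median log2 difference of the 64 above the floor on both arrays was -0.05, next to -0.06 for all genes. By their brightest probe sets, 6 of the 64 were as low as the CD44 median of -0.78. That median is over probe sets, and by its brightest probe set CD44 was at -0.14, so that the measures differ.

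Hyaluronan, the main ligand, is made by synthases at the plasma membrane. HAS3 had 5508 in spheroids and 4529 in monolayer (log2 difference 0.28), HAS2 was under the floor on both arrays, and UGDH, which makes the precursor UDP-glucuronate, was at 0.62. Of 6 genes of hyaluronan breakdown with a probe set of their own 3 were above the floor. CEMIP, which binds and helps degrade hyaluronan, was 2.85-fold higher, with 726.6 in spheroids and 255.2 in monolayer by its 1 measured probe set. HYAL2, a hyaluronidase, was at -0.06, and HYAL3, HYAL4 and SPAM1 were under the floor. HMMR, another hyaluronan receptor that also serves the mitotic spindle, was at 0.56, and it was the only one of 6 such receptors above the floor on both arrays. SPP1, the ligand osteopontin, was 2.60-fold higher, with 340.2 in spheroids and 130.6 in monolayer, while FN1, fibronectin, was at 0.06 and MMP9, a protease that docks on CD44, at -0.12.

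The proteins that join the CD44 tail to actin differed among themselves. EZR, ezrin, was 2.08-fold lower, with 10224 in spheroids and 21301 in monolayer, and its 5 measured probe sets ran from -1.28 to -0.53. MSN, moesin, was at -0.60 and RDX, radixin, at 0.40. NF2, the tumour suppressor merlin, which competes for the same tail, was at -0.61. Over the 9 measured linkers the median was -0.19, and it was 0.22 when the probe set with the largest difference stood for each gene. The brightest probe set of EZR was at -1.06, above the median of -1.26 over its 5 measured probe sets. That of CD44 was at -0.14, above its median of -0.78. In both genes the brightest lay within the range of the other probe sets.

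Among the enzymes that cleave CD44, ADAM10, the main sheddase, was at 0.22, ADAM17 at -0.12 and MMP14 at 0.28, and of the gamma-secretase subunits APH1B was lowest at -0.68, with a second probe set at 0.06. By their brightest probe sets 0 of the 8 measured genes were past 2-fold, as were 0 of the 12 regulators of CD44 exon choice. By the same choice 5.61% of all genes were, so that neither count stands apart from all genes. ESRP1, the epithelial splicing factor that keeps variant exons in, had 5341 in spheroids and 5407 in monolayer, a log2 difference of -0.02. HNRNPM, which opposes it, was at 0.36, though its 3 measured probe sets ran from -0.65 to 0.38. HNRNPA1 was at 0.52, with 3 measured probe sets from 0.37 to 1.03, and TRA2B at -0.04, with 3 from -0.04 to 1.20. In both genes the highest probe set was past 2-fold. SRRM1 was at -0.41, with a second probe set at -0.12. The median of these 12 was -0.03 by the brightest probe sets and 0.47 by those with the largest difference.

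Of 8 measured partners of CD44 in the membrane 6 were below 0, where 55.5% of the 11555 genes were, and 1 was at least 2-fold lower. MET, the receptor of hepatocyte growth factor, was 1.94-fold lower, with 8064 in spheroids and 15609 in monolayer, and its 4 measured probe sets ran from -1.39 to -0.15. ABCB1, a drug efflux pump, was 2.47-fold lower, though its spheroid signal of 80.8 lay near the floor. SLC7A11, the cystine transporter that CD44 variant forms stabilise, was 2.05-fold higher, with 2624 in spheroids and 1277 in monolayer. That was a log2 difference of 1.04 by its brightest probe set, and its other measured probe set was at 2.07. The median over the 8 was -0.36 as deposited, -0.12 scaled to the hybridisation controls and 0.06 scaled to the labelling controls.

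Transcription factors known to act on CD44 lay on both sides of 0. CTNNB1, beta-catenin, was at 0.01 by its brightest probe set, and its 3 measured probe sets ran from 0.01 to 0.34. Its partner TCF7L2 was at -0.15, while its 7 measured probe sets ran from -0.53 to 0.91. EGR1 was 1.87-fold higher, and JUN, a subunit of AP-1, was 2.31-fold higher, with 4396 in spheroids and 1906 in monolayer. KLF4 was 1.61-fold lower. ETS1 was 3.39-fold lower at the brighter of its measured probe sets, with 508.7 in spheroids and 1722 in monolayer, but its other measured probe set was at 0.36.

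The other surface markers of colon CSCs lay on both sides of 0. CXCR4, a chemokine receptor, had 533.4 in spheroids and 166.8 in monolayer, 3.20-fold higher, and its 3 measured probe sets ran from 1.33 to 1.68. PROM1, the gene of CD133, was at 0.41 and CD24 at 0.49, EPCAM, ALCAM and ITGB1 lay within 0.08 of 0, and LGR5 was under the floor. DCLK1 was 5.35-fold lower by 1 measured probe set, with 130.0 in spheroids and 695.4 in monolayer. ITGA6, a laminin receptor subunit, was at -0.84 by its brightest probe set and -0.38 by the other. The median over the 8 measured markers was 0.06, and -0.02 with the arrays centred on their medians.

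**Figure D3:**
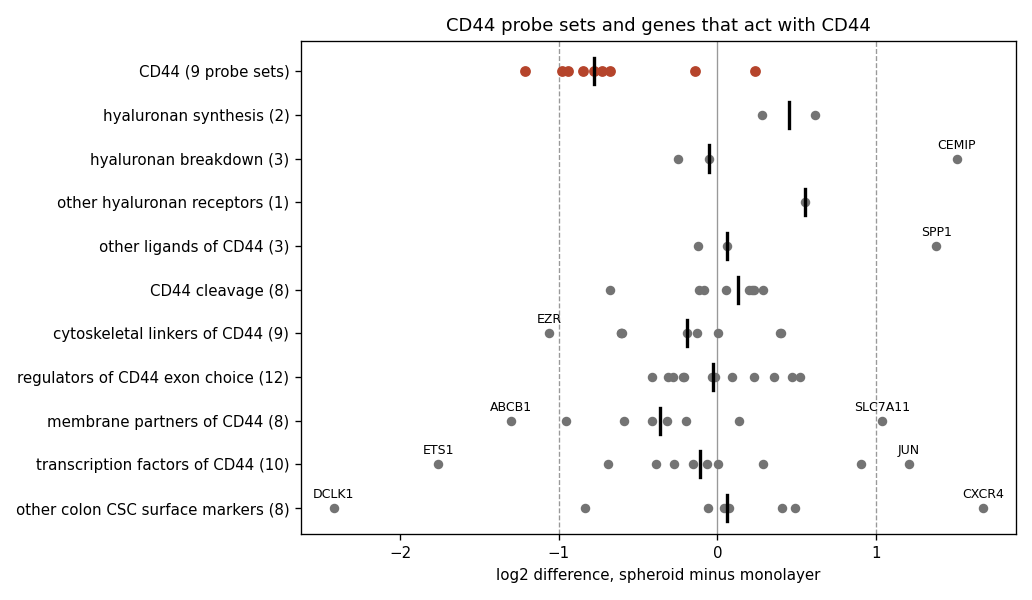
Log2 difference in signal, spheroid minus monolayer, for the 9 CD44 probe sets above the floor (top row) and for genes of 10 lists above the floor on both arrays (grey, 1 probe set per gene, number in parentheses), 1 array per condition. Black bars are medians and dashed lines mark 2-fold, and genes past 2-fold are named. The bar of CD44, a median over probe sets, is at -0.78, and the bars of the lists, medians over genes by their brightest probe set, run from -0.36 to 0.56, so that the measures differ. By its brightest probe set CD44 is at -0.14.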

How the data were processed

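RNA of HT-29 spheroids and of HT-29 monolayer was hybridised to U133 Plus 2.0 arrays, 1 for each. The deposited values are MAS5 signals, intensities on a linear scale that the authors made with Affymetrix Expression Console and scaled to a trimmed mean of 500.1. Duplicates are described in the methods, but the comparison here rests on a single array of each kind, which limits its precision. The table holds no detection calls.

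Probe sets were named through the platform annotation, with 41097 assigned to 1 gene, 1801 to several and 11777 unnamed here, and symbols of 41043 were updated through the GRCh38.p14 RefSeq table, which served only for names, transcript counts and neighbours. No probe set is assigned to CD44 together with another gene. Low signals were raised to the floor, the 50th percentile over both arrays, before log2. Each gene was represented by its brightest probe set (mean log2 signal), and where 1 array lay under the floor the difference is a bound. The 2-fold limit follows the methods. Genes named are CD44, members of the CD44 lists, its neighbours and the 5 nearest genes. The members and lists were chosen with earlier results of these data known. Python 3.11.15, numpy 2.4.6, pandas 2.3.3 and matplotlib 3.10.9 were used, and the computation was tested on simulated data. Alternatives changed the scaling, the floor, the probe sets used, the probe set that stands for a gene and the threshold.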

Additional observations from a re-analysis of the deposited data

How the results depend on the processing

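Values count as moved where they differ by more than 0.41 on the log2 scale, the pooled SD between probe sets of 1 gene, since no replicate spread exists, and counts where they differ by over 1.5 times. Scaling to the labelling spike-ins, added after seeing the data, put the median of CD44 at -0.36, with 7 of 9 probe sets lower and 0 at least 2-fold lower. Scaling to a set of controls moves all probe sets of the gene alike, and 212063_at was above 0 under both spike-in scalings, at 0.11 and 0.28. The median of CD44 was -0.14 with plain _at probe sets only, of which 3 were measured, and 2 of 13 other genes then had a median as low. With the arrays centred on their medians 3 CD44 probe sets were at least 2-fold lower, and 0 with scaling to the hybridisation spike-ins or the floor at the 75th percentile, where 229221_at lay under the floor on the spheroid array. The gap between the brightest probe set and the rest was 0.17 without 212063_at, a choice made after seeing the data. Without a floor all 13 probe sets had a difference, 11 of them were lower, the SD was 0.47, 84.1% of the other genes had one as large, and 29 of 630 had a median as low as CD44. With the pseudocount 10 of 630 did.
All genes at least 2-fold higher numbered 334, and 791 where the most different probe set stood for a gene, 700 with the hybridisation spike-ins, 1163 with the labelling spike-ins, 2476 without a floor, 1370 with the pseudocount, 100 with the floor at the 75th percentile and 52 at 3-fold. All genes at least 2-fold lower numbered 406, and 716, 189, 115, 2502, 1434, 74 and 60 under the same settings. Of the list genes 5 were higher, and 9 by the most different probe set, 11 without a floor, 2 with the floor at the 75th percentile and 1 at 3-fold. Of the list genes 4 were lower, and 7, 8, 2 and 2 under these settings and 7 with the pseudocount, and 2 with the labelling spike-ins. No alternative with probe sets of several genes was run because CD44 has none, and no paired analysis was possible because each condition has 1 array. Depth here is signal over background, which was unknown for the 4 probe sets under the floor.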
